A study of Rattus norvegicus with 14 samples.

Results

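The calcineurin pathway was followed through 10 rat genes: the calcineurin inhibitors Rcan1, Rcan2 and Rcan3, the calcineurin subunits Ppp3ca, Ppp3cb, Ppp3cc and Ppp3r1, and the transcription factors Nfatc2, Nfatc3 and Nfatc4. They were taken by symbol, and all 10 were found among the 18239 genes listed for hippocampal neurons and among the 31791 listed for hippocampal astrocytes. Rcan2 was the reason for the choice, because it was lower in neurons treated with allopregnanolone (Allo, a neurosteroid made from progesterone), so the neuron values under Allo are described below without a test. RNA was sequenced from cultures of embryonic day 18 rat hippocampus. Neurons on day 10 in culture spent 4 h in AM, a medium low in supplements that serves as an aging model, and for 16 h more received either the vehicle, which was 0.001% ethanol (AM-Veh), or Allo at 100 nM (AM-Allo), 4 libraries each. The AM of astrocytes had another base medium, with charcoal-stripped serum. Astrocytes spent 24 h in it and 24 h with vehicle or 100 nM Allo, 3 libraries each. Every group was therefore in the AM medium of its cell type, and cultures outside AM were not analysed here. The labels do not say whether libraries of a group came from separate cultures or animals, so each p-value measures the spread between these libraries, which may be technical.

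Calcineurin is a phosphatase that is switched on by Ca2+ and calmodulin. A catalytic A subunit, made from Ppp3ca, Ppp3cb or Ppp3cc, pairs with a regulatory B subunit that binds Ca2+ and is made from Ppp3r1. RCAN proteins bind calcineurin and can inhibit it, and NFAT proteins are substrates that move to the nucleus once calcineurin has removed their phosphates. In neurons the enzyme takes part in long-term depression of synapses and in the recycling of synaptic vesicles, and the NFAT route is known to raise Rcan1 as a feedback.

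The sequences upstream of the RCAN gene starts are shown because NFAT acts on DNA through the short core GGAAA, and because these genes are the ones set beside each other below. They are the 250 bases before each gene start in RefSeq on assembly GRCr8, all on the minus strand, at chr11:45118237-45118486 for Rcan1, chr9:24672190-24672439 for Rcan2 and chr5:152947005-152947254 for Rcan3. Capitals mark GGAAA or its reverse complement TTTCC.
Rcan1: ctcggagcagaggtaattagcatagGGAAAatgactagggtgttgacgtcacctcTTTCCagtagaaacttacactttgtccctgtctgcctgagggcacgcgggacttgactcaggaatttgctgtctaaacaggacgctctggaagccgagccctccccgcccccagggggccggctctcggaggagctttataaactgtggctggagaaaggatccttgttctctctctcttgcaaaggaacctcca
Rcan2: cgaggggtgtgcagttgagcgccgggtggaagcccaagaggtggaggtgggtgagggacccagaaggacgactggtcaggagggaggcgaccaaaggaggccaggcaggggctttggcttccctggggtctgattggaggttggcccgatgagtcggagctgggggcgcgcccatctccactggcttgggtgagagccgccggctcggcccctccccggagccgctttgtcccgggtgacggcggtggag
Rcan3: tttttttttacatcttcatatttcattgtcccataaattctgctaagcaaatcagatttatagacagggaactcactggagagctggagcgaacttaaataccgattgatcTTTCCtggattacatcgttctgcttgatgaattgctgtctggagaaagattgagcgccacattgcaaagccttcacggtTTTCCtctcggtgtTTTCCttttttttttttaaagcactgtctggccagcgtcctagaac
The core occurred 2 times upstream of Rcan1, 3 times upstream of Rcan3 and 0 times upstream of Rcan2. A window was found for 7 of the 10 genes. Ppp3cb and Ppp3r1 held 1 match each, and Ppp3ca and Nfatc2 held 0. The core is common, and 56.9% of the 33465 rat promoter windows of the same length held it on either strand. The Rcan1 window also held 1 cAMP response element, TGACGTCA, which was present in 1.59% of windows, and 1 AP-1 site, TGANTCA, which was present in 6.34%. The shorter form TGACG, which overlaps TGACGTCA, was present in 18.2% of windows, with 2 matches for Rcan1 and 1 each for Rcan2, Ppp3cb and Ppp3r1. These are matches of letters in a window and carry no information on binding.

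Values are counts per gene after the authors' normalization for library size, called normalized counts here, and their sums ran from 21985000 to 22358000 per neuron library and from 23784000 to 24007000 per astrocyte library. Neuron libraries carry numbers in 2 parts (1-1, 1-2, 2-1 and 2-2), and libraries with the same first number deviated together, so each neuron result is also given within the first number. What that number stands for is not given in the sources used here. The 10 astrocyte markers were all present in the neuron libraries, led by Gfap, Slc1a3 and Glul at mean AM-Veh levels of 94230, 60230 and 30470 normalized counts, beside 24730 for Map2, 12380 for Dcx and 9470 for Stmn2. In the astrocyte libraries the astrocyte markers Gfap, Slc1a3 and Aqp4 stood at 135900, 45010 and 32570. In cultures of more than 1 cell type, fewer cells of a type and less RNA per cell cannot be told apart.

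Among the inhibitors, Rcan2 was lower in every AM-Allo neuron library than in every AM-Veh library. Rcan2 measured 1048, 999, 1105 and 1068 normalized counts in AM-Veh libraries 1-1, 1-2, 2-1 and 2-2, and 814, 768, 953 and 916 in the AM-Allo libraries of the same numbers. The means were 1055 ± 44.5 (SD, n = 4) and 863 ± 86.4 (SD, n = 4), a ratio of 0.818. On the log2 scale the difference was −0.29 (SE 0.07, 95% interval −0.45 to −0.14). It was also −0.29 with the first number in the model. The SE and intervals given for AM-Allo minus AM-Veh in neurons come from a fit without the first number. They therefore include the spread between first numbers, although libraries with the same first number deviated together. The groups did not overlap, and the AM-Allo libraries with first number 1 were the lowest of the 8. With any single library left out the log2 difference was −0.34 to −0.24.

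Rcan1, the inhibitor known as a feedback product of the pathway, measured 2163, 2133, 2174 and 2188 normalized counts in AM-Veh and 1988, 2064, 2074 and 2154 in AM-Allo, in the same order of libraries. Of the 4 AM-Allo libraries, 3 lay below all AM-Veh libraries, and the fourth (2-2) lay inside the AM-Veh range. The log2 difference of Rcan1 was −0.06 (SE 0.03, 95% interval −0.14 to 0.01). Rcan3, the least counted inhibitor, ranged from 133 to 174 normalized counts in AM-Veh and from 144 to 155 in AM-Allo, so its groups overlapped. The log2 difference of Rcan3 was −0.09 (SE 0.10, 95% interval −0.32 to 0.13).

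Of the subunits of the enzyme itself, Ppp3ca, the catalytic alpha isoform, was the one whose neuron groups did not overlap, and it was higher with Allo. The study itself had listed Ppp3ca, like Rcan2, among its changed Ca2+ signaling genes in neurons, so this is not independent evidence. Ppp3ca measured 3496, 3417, 3359 and 3199 normalized counts in AM-Veh and 3525, 3577, 3545 and 3577 in AM-Allo. The lowest AM-Allo library exceeded the highest AM-Veh library by less than the spread within AM-Veh. The means were 3368 ± 126 (SD, n = 4) and 3556 ± 25.5 (SD, n = 4), a ratio of 1.06, and the log2 difference was 0.08 (SE 0.03, 95% interval 0.01 to 0.15). The catalytic beta isoform Ppp3cb averaged 4010 ± 218 in AM-Veh and 4101 ± 114 in AM-Allo, with a log2 difference of 0.03 (SE 0.04). The catalytic gamma isoform Ppp3cc averaged 466 ± 18.8 and 451 ± 53.1, with a log2 difference of −0.05 (SE 0.08), and its AM-Allo libraries spread on both sides of the AM-Veh range. The regulatory subunit Ppp3r1 averaged 4839 ± 154 and 4782 ± 127, with a log2 difference of −0.02 (SE 0.03).

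The NFAT genes overlapped between the neuron groups. Nfatc2 ranged from 88.9 to 123 normalized counts in AM-Veh and from 81.2 to 99.8 in AM-Allo, with a log2 difference of −0.20 (SE 0.13, 95% interval −0.48 to 0.08). Nfatc3 ranged from 689 to 755 and from 607 to 745, with a log2 difference of −0.06 (SE 0.07, 95% interval −0.21 to 0.09). Nfatc4 was close to the lower limit of what was tested, at 12.2 to 30.1 in AM-Veh and 7.72 to 23.1 in AM-Allo, and its interval was the widest of the 10 (−1.05 to 0.56 around −0.25). With Allo the mean of 2 of the 10 genes was higher and that of 8 was lower. Their median log2 difference was −0.06, against −0.0015 over the 15314 neuron genes with a mean of at least 10 normalized counts. Groups that did not overlap were counted for 1 gene in the lower direction (Rcan2), where 1.89% of all genes did so, and for 1 gene in the higher direction (Ppp3ca), where 2.06% did. Since the genes were chosen on this comparison, these counts describe them and test nothing.

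**Figure D1:**
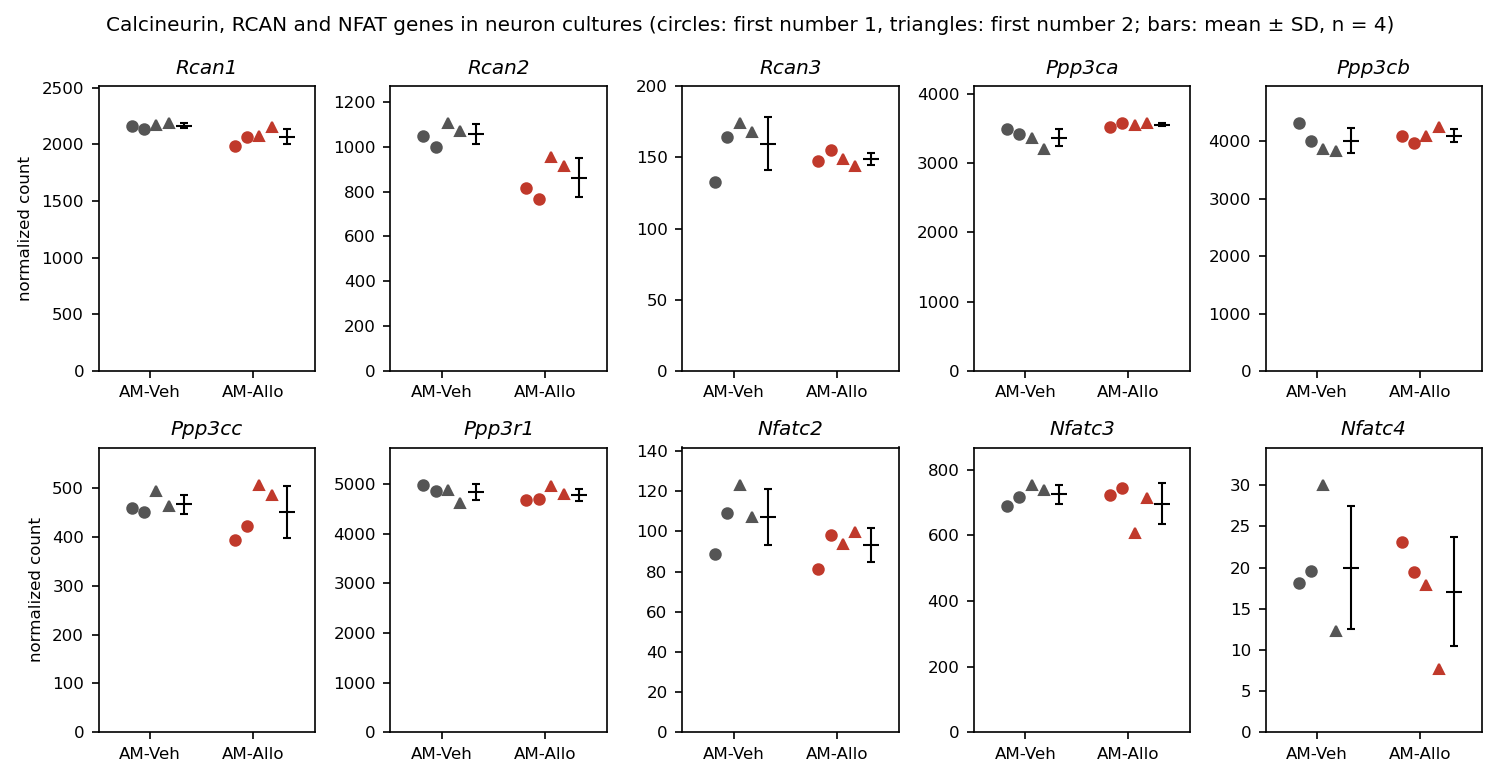
Normalized counts of the 10 genes in the neuron libraries, 1 panel per gene, with AM-Veh in grey and AM-Allo in red, circles for first number 1, triangles for first number 2 and bars for the mean ± SD of 4 libraries. The red points of Rcan2 (768 to 953) all lie below the grey ones (999 to 1105), those of Ppp3ca lie just above them, and the other 8 panels overlap.

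The balance between Rcan2 and the rest of the pathway was described as the ratio of normalized counts within each library, which does not depend on library size. Relative to Ppp3ca the ratio of Rcan2 was 0.292 to 0.334 in AM-Veh neurons and 0.215 to 0.269 in AM-Allo neurons. Relative to Rcan1 it was 0.468 to 0.509 and 0.372 to 0.460, and relative to Ppp3cc it was 2.22 to 2.31 and 1.82 to 2.08. The groups did not overlap for these 3 genes, nor for Ppp3cb and Ppp3r1, whereas they overlapped for Rcan3 and the 3 NFAT genes. Rcan2 is in every ratio and was chosen for its lower neuron values with Allo. The separation in neurons therefore follows in part from that choice and tests nothing. In astrocytes the ratio of Rcan2 to Ppp3ca was 1.30 to 1.35 in AM-Veh and 1.28 to 1.44 in AM-Allo. There the groups overlapped for 8 of the 9 genes, the exception being Ppp3cc, with 5.66 to 6.23 in AM-Veh and 6.29 to 6.38 in AM-Allo. How often the ratio of Rcan2 to any other gene separated the groups was not computed in either cell type. These counts therefore carry no result about the pathway.

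**Figure D2:**
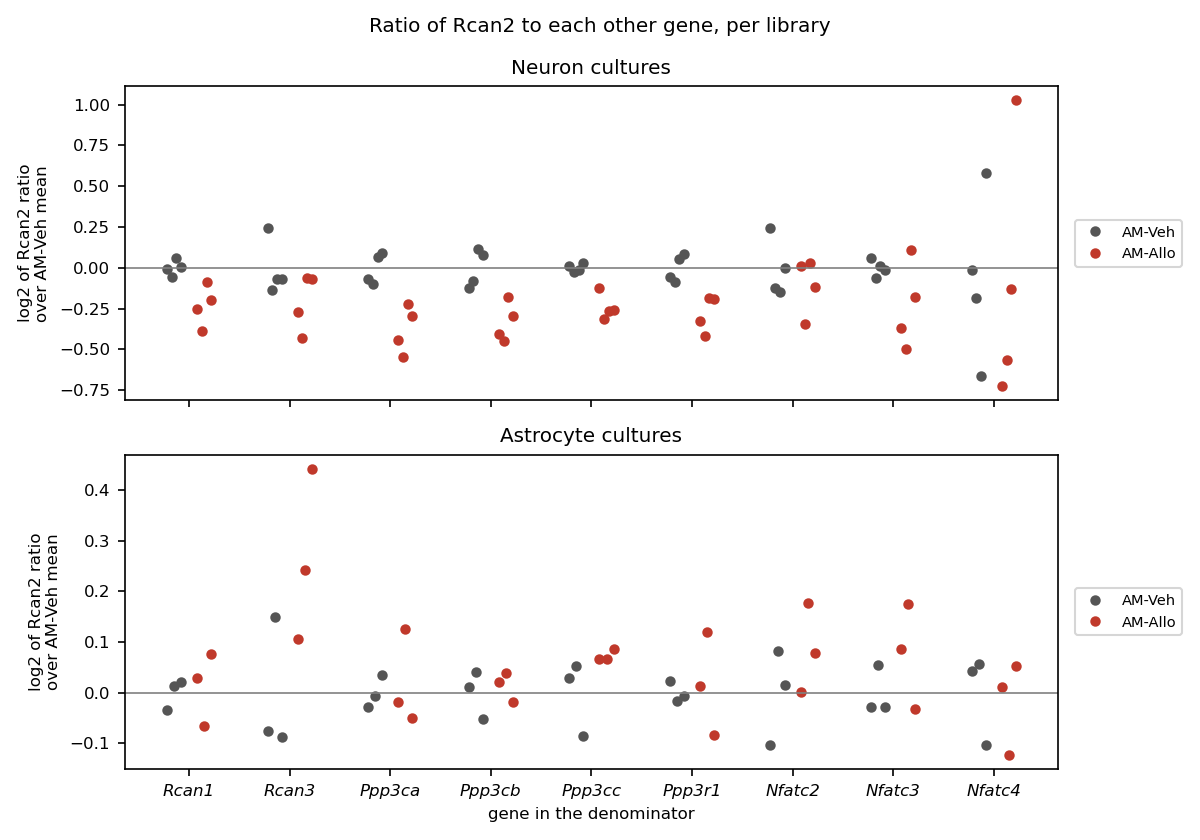
Ratio of Rcan2 to each of the other 9 genes in each library, as the log2 of the ratio over its AM-Veh mean, with neurons above and astrocytes below on separate axes, AM-Veh in grey and AM-Allo in red. In neurons the red points lie below the grey ones for Rcan1, Ppp3ca, Ppp3cb, Ppp3cc and Ppp3r1, and in astrocytes the groups separate for Ppp3cc alone. The separation in neurons follows in part from the choice of Rcan2.

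Cell makeup was set beside these values with the same marker lists. Astrocyte markers summed to 1.06% to 1.28% of the counts in AM-Veh neuron libraries and 1.06% to 1.25% in AM-Allo, and 0 of 10 differed at an unadjusted p under 0.05 with limma. Neuron markers summed to 0.282% to 0.318% and 0.310% to 0.338%, and of the 9 tested, 4 were higher and 1 lower with Allo at that threshold. Of all genes tested, 3.21% were higher and 2.48% lower. Oligodendrocyte lineage markers (Olig1, Cnp and Olig2 leading, at 14680, 14340 and 8969) summed to 0.236% to 0.258% and 0.241% to 0.276%, with 1 of 10 higher. Markers of microglia (Cd68, Tmem119 and Csf1r leading, at 108, 17.2 and 3.58) and of mesenchymal and endothelial cells (Pdgfrb, Col1a1 and Dcn leading, at 368, 225 and 183) reached at most 0.00074% and 0.0117%, and of the 2 and 7 tested, 0 differed. The part of neuron and oligodendrocyte lineage markers in the Rcan2 values was not tested.

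Within each first number, the Allo difference of Rcan2 kept its direction, which must follow where the pooled groups do not overlap. It was −0.37 on the log2 scale in libraries with first number 1 and −0.22 in those with first number 2, and in each, both AM-Allo libraries lay below both AM-Veh libraries. Rcan1 showed the same arrangement, with −0.08 and −0.05. Ppp3ca lay above both AM-Veh libraries in each, with 0.04 and 0.12, which also follows from pooled groups that do not overlap. The other catalytic isoforms and the B subunit differed in sign between the first numbers: Ppp3cb had −0.05 and 0.11, Ppp3cc −0.16 and 0.05, and Ppp3r1 −0.07 and 0.04. Nfatc3 and Nfatc4 differed in the other sense, with 0.06 and −0.18 for Nfatc3 and 0.17 and −0.66 for Nfatc4, as did Rcan3, with 0.03 and −0.22. Nfatc2 had −0.14 and −0.25.

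The difference between first numbers is another contrast than the one that chose the genes, although it uses the same libraries. It was added after the data were seen, and was tested as an interaction with limma over all 15314 genes. At an unadjusted p under 0.05 it reached 3 of the 10 genes, Ppp3cb (0.16, SE 0.06), Nfatc3 (−0.25, SE 0.10) and Ppp3r1 (0.11, SE 0.05), where 9.53% of all genes did so. After Benjamini-Hochberg adjustment over all genes it reached 0 of the 10, where 0.0784% of all genes passed. The adjusted p was 0.379 for Ppp3cb, 0.462 for Nfatc3 and 0.518 for Ppp3r1. For Rcan2 the difference between first numbers was 0.15 (SE 0.08, limma adjusted p = 0.579), so a difference in the size of its Allo values was not shown.

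**Figure D3:**
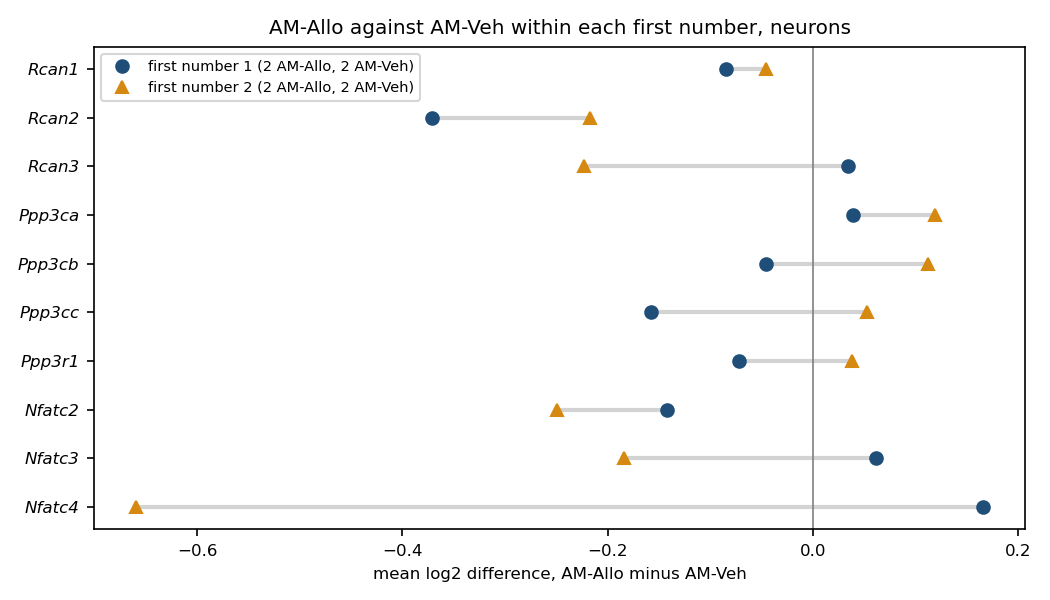
Mean log2 difference of AM-Allo from AM-Veh for each of the 10 genes in neurons, within first number 1 (blue circles) and within first number 2 (orange triangles), 2 libraries against 2 in each, joined by grey lines. Rcan2 lies left of 0 in both (−0.37 and −0.22), Ppp3ca right of 0 in both, and Ppp3cb, Ppp3cc, Ppp3r1, Rcan3, Nfatc3 and Nfatc4 have points on both sides. The sides of Rcan2 and Ppp3ca follow from pooled groups that do not overlap.

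Libraries with first number 2 were also compared with those with first number 1, with treatment in the model. Rcan2 rose by 0.16 on the log2 scale (SE 0.04, 95% interval 0.07 to 0.26, limma adjusted p = 0.0194), from 907 ± 137 (SD, n = 4) to 1010 ± 90.5 (SD, n = 4). Within each treatment, both libraries of first number 2 exceeded both of first number 1, while the pooled groups overlapped. Ppp3cc averaged 430 ± 29.9 and 486 ± 18.5, a log2 difference of 0.18 (SE 0.06, limma adjusted p = 0.0574), and its groups did not overlap (exact permutation test, two-sided, p = 0.0286, the smallest that 4 against 4 libraries can give). The exact permutation test of Rcan2, which does not take treatment into account, gave p = 0.257. Of the 10 genes 2 passed an unadjusted p under 0.05 and 1 the adjusted threshold, against 29.3% and 17.2% of all genes, so the shares did not exceed those of all genes. Groups did not overlap for 1 of the 10 genes, in the higher direction, where 10.2% of all genes did so.

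The adjusted call of Rcan2 between first numbers rested on all 4 AM-Allo libraries. It was lost without any one of 1-1, 1-2, 2-1 or 2-2 of AM-Allo (adjusted p = 0.051, 0.0759, 0.0721 and 0.0552), and without a variance trend (adjusted p = 0.0756). In the AM-Veh libraries alone the difference was 0.09 (limma adjusted p = 0.446). Nfatc4, at −0.38, passed the unadjusted threshold without AM-Veh 2-1 (−0.71). Ppp3cc passed the adjusted threshold without AM-Veh 1-1 (adjusted p = 0.0462) or AM-Veh 2-2 (adjusted p = 0.0277). Astrocyte markers summed to 1.06% to 1.11% of counts with first number 1 and 1.18% to 1.28% with first number 2. At the adjusted threshold 7 of 10 changed, 4 higher and 3 lower with first number 2. Gfap averaged 73160 and 112200 normalized counts with first numbers 1 and 2, whereas Glul averaged 34920 and 26600. Oligodendrocyte lineage markers summed to 0.258% to 0.276% and 0.236% to 0.246% (7 of 10 changed, 1 higher and 6 lower). Mesenchymal and endothelial markers summed to 0.00456% to 0.0117% and 0.00287% to 0.00357% (5 of 7 changed, 1 higher and 4 lower). Of the neuron markers 0 of 9 changed, and of the microglia markers 1 of 2. The part of these markers in the differences of Rcan2 and Ppp3cc was not tested.

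In astrocytes, a comparison that played no part in choosing the genes, Allo gave no call for any of the 10. Rcan2 measured 2924, 3034 and 2891 normalized counts in AM-Veh and 2996, 3090 and 2902 in AM-Allo. The groups overlapped, and the log2 difference was 0.02 (SE 0.04, 95% interval −0.06 to 0.11, limma adjusted p = 0.948). That interval excludes a difference as low as the −0.29 seen in neurons, which is the value on which Rcan2 was chosen. However, the 2 cell types were normalized separately and treated in different media for different times, so no test compared them. Rcan1 averaged 1668 ± 50.5 (SD, n = 3) and 1681 ± 137 (SD, n = 3), with a log2 difference of 0.01 (95% interval −0.11 to 0.13).

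Rcan3 had the largest difference of the 10 in astrocytes. It measured 214, 190 and 214 normalized counts in AM-Veh and 194, 182 and 149 in AM-Allo, so that 2 AM-Allo libraries lay below all AM-Veh libraries. The log2 difference was −0.24 (SE 0.12, 95% interval −0.51 to 0.02, limma adjusted p = 0.736), and the exact permutation test, two-sided, gave p = 0.2, where 3 libraries against 3 allow no p below 0.1. The difference was −0.13 without AM-Allo 3, and it passed the unadjusted threshold, but not the adjusted one, without AM-Veh 2 or without AM-Allo 1 (limma adjusted p = 0.875 and 0.528).

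The 4 subunits and the 3 NFAT genes had astrocyte log2 differences between −0.06 and 0.04. Ppp3ca averaged 2233 ± 87.2 and 2237 ± 82.4, with a 95% interval of −0.09 to 0.10 around the log2 difference. Nfatc3, of which 2 of 3 AM-Allo libraries lay below all AM-Veh libraries, averaged 1657 ± 17.3 and 1596 ± 65.6, with a log2 difference of −0.05 (95% interval −0.15 to 0.04). Among the 10 genes, 0 passed an unadjusted p under 0.05 with limma (7.01% of the 15380 astrocyte genes tested), 0 passed the adjusted threshold (0.0065%), and 0 had groups that did not overlap (12.5%). The median log2 difference was 0.0042, against 0.0014 over all genes. Astrocyte markers summed to 1.13% to 1.19% of counts in AM-Veh astrocyte libraries and 1.13% to 1.14% in AM-Allo, neuron markers (Stmn2, Map2 and Syn1 leading, at 21790, 3873 and 215) to 0.108% to 0.112% and 0.105% to 0.109%, and microglia markers (Csf1r, C1qa and Tmem119 leading, at 333, 299 and 226) to 0.00673% to 0.00832% and 0.00679% to 0.00754%. At an unadjusted p under 0.05, 2 of 10, 2 of 6 and 1 of 10 of these markers were lower with Allo. Mesenchymal and endothelial markers (Col1a2, Col1a1 and Col3a1 leading, at 29770, 23510 and 8841) and oligodendrocyte lineage markers (Cnp and Olig1 among them, at 2574 and 944) had 0 of 4 and 0 of 7. The mesenchymal and endothelial markers summed to 0.254% to 0.301% of counts in AM-Veh and 0.275% to 0.289% in AM-Allo.

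**Figure D4:**
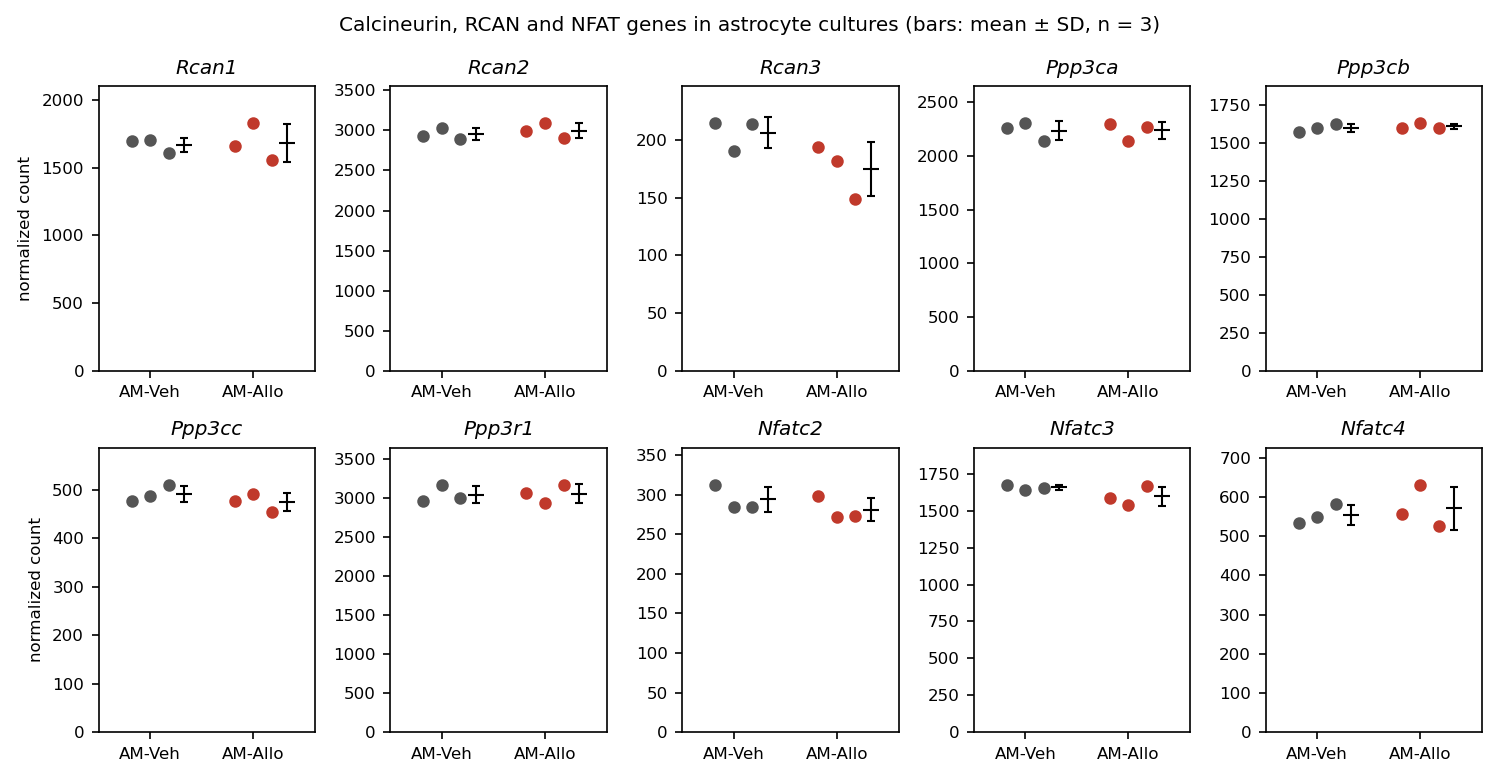
Normalized counts of the 10 genes in the astrocyte libraries, 1 panel per gene, with AM-Veh in grey, AM-Allo in red and bars for the mean ± SD of 3 libraries. The groups overlap in all 10 panels, and 2 of the red points of Rcan3 (182 and 149) lie below its grey points (190 to 214).

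**Figure D5:**
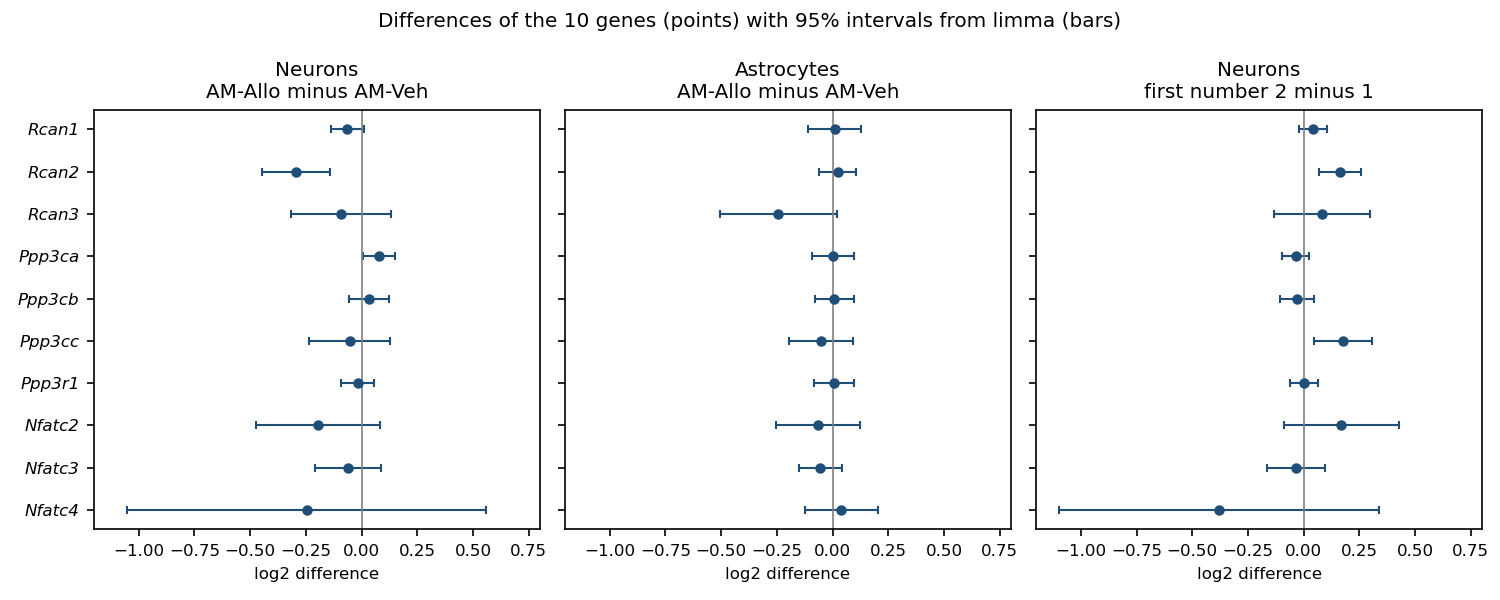
Log2 differences of the 10 genes (points) with 95% intervals from limma (bars) for AM-Allo minus AM-Veh in neurons, AM-Allo minus AM-Veh in astrocytes, and first number 2 minus first number 1 in neurons. The left panel is a description, with Rcan2 at −0.29 and Ppp3ca at 0.08, and its intervals come from a fit without the first number. Of the intervals in the middle panel all 10 include 0, and in the right panel those of Rcan2 and Ppp3cc do not.

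The level of each gene was set side by side between the cell types as a share of its table, in normalized counts per 1000000 of the AM-Veh libraries, with no test. Rcan2 made up 123.5 ± 2.76 in astrocytes (SD, n = 3) and 47.6 ± 1.68 in neurons (SD, n = 4), a ratio of 2.59. Rcan1 lay the other way, at 69.9 ± 2.09 in astrocytes and 97.7 ± 0.602 in neurons. The neuron table held more of Ppp3ca (152 against 93.5), Ppp3cb (181 against 67.1) and Ppp3r1 (218.5 against 127.4). It held less of the NFAT genes: 4.84 against 12.3 for Nfatc2, 32.7 against 69.4 for Nfatc3 and 0.902 against 23.2 for Nfatc4, where the astrocyte level was 25.7 times the neuron level. The ranges overlapped between cell types for Rcan3 and Ppp3cc and for no other of the 10 genes.

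The share of each catalytic isoform in the catalytic counts was taken over all libraries of a cell type. Ppp3ca gave 42.3% to 44.9% in neurons and 49.99% to 52.6% in astrocytes, Ppp3cb gave 49.8% to 52.2% and 36.5% to 38.2%, and Ppp3cc gave 4.90% to 6.38% and 10.5% to 11.9%. These are shares of counts that are not corrected for transcript length. Because the neuron cultures held astrocyte markers at the levels given above, the cell type that carried Rcan2 and the NFAT transcripts in them cannot be told apart from these values. The same holds for the astrocyte cultures, which held mesenchymal and endothelial markers at the levels given above, so their levels need not be those of astrocytes alone.

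The genes whose neuron profile was most like that of Rcan2 were taken by the root mean square difference of centred log2 values over the 8 libraries, among 12903 genes with a mean of at least 50. They were LOC100909912 (0.053), Rasd2 (0.0553), a small G protein best known from the striatum, Hivep2 (0.0559), a zinc finger transcription factor, Fmc1 (0.0619) and Stx3 (0.0629), a syntaxin of membrane fusion. The median difference over all genes was 0.199. The Rcan2 profile itself had a root mean square of 0.176, which is the difference that a gene without any change would have. Among the other members, Ppp3cc was the nearest to Rcan2, at rank 346 (0.132), then Rcan1 at rank 619 (0.142). Ppp3ca was the farthest, at rank 8224 (0.215), and Nfatc4 was under the minimum. Hivep2 ranged from 2612 to 2811 normalized counts in AM-Veh and from 1997 to 2239 in AM-Allo, and Rasd2 from 334 to 418 and from 274 to 347. Rasd2 was also among the genes that the study had listed as changed in neurons. Likeness of this kind includes the difference with Allo that chose Rcan2 and also the difference between first numbers.

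Around the 10 genes, 83 other genes of the pathway were taken from 7 lists, of which 76 were tested in each cell type. The lists held genes that the study itself had listed on these libraries, such as Elk1, Mef2c, Bdnf and Itpr2, so their direction is not independent evidence. In neurons the AM-Allo mean was higher for 44 of these and lower for 32, and their median log2 difference was 0.01. At an unadjusted p under 0.05 with limma, 11 of 76 passed, where 5.69% of all genes passed, and 8 of them were higher and 3 lower, where 3.21% and 2.48% of all genes were. After adjustment 0 of 76 passed, where 0.0261% did. With the first part of the library number as a block, 19 passed the unadjusted threshold and 1, Mef2c, the adjusted one (0.25, adjusted p = 0.00729). In that fit 1684 of all 15314 genes passed the unadjusted threshold and 104 the adjusted one. With the whole number as a block, 19 passed the unadjusted threshold and Dnm1 (adjusted p = 0.0487) and Mef2c (adjusted p = 0.0121) the adjusted one. There 1634 of all 15314 genes passed the unadjusted threshold and 93 the adjusted one.

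Of the 20 genes for calcineurin substrates, 5 passed the unadjusted threshold, all higher with Allo: Elk1, Dnm1, Mef2c, Amph and Synj1, of which the last 3 were named after their values were seen. Elk1, an ETS transcription factor, averaged 786 ± 35.4 with vehicle and 929 ± 63.2 with Allo (SD, n = 4 each). The log2 difference of Elk1 was 0.24 (SE 0.06, limma adjusted p = 0.442), and all AM-Allo libraries lay above all AM-Veh libraries. Dnm1, the dynamin of synaptic vesicle recycling, averaged 2400 and 2839 (log2 difference 0.24, limma adjusted p = 0.65), and its groups overlapped. Of the 15 genes for calcium entry and stores, 3 passed, all higher: Stim2, a calcium sensor of the endoplasmic reticulum (log2 difference 0.13), Itpr2, an IP3 receptor (0.09), and Ryr3, a ryanodine receptor (0.20). The limma adjusted p of these 3 was 0.65, 0.712 and 0.846.

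The genes known to have NFAT sites were lower where they passed. Of 6 tested in neurons, 2 passed the unadjusted threshold: Egr3, an immediate-early zinc finger factor, averaged 108 ± 12.8 and 81.5 ± 5.82 (log2 difference −0.40, limma adjusted p = 0.65), and Bdnf, a neurotrophin, 332 ± 36.9 and 272 ± 22.3 (−0.28, limma adjusted p = 0.671). Both had groups that did not overlap, and the median of the 6 was −0.29. The 7 AP-1 partners of NFAT held 1 that passed, Fosb, at 17.1 ± 3.94 and 9.01 ± 3.57 (−0.91, limma adjusted p = 0.737), which did not pass without AM-Veh 2-1 (−0.78). Of 12 calmodulins, anchors and other regulators, 14 NFAT kinases and the other NFAT genes Nfatc1 and Nfat5, 0 passed without a block. Csnk1a1 had the highest counts of the NFAT kinases and Nfat5 of the other NFAT genes, at 8312 and 1943 normalized counts over the neuron libraries. With either block, 8 more genes passed the unadjusted threshold, and they were named after their values were seen. In neurons with Allo these were the anchor Akap6 (log2 difference 0.14), the kinase subunit Prkacb (0.11), the substrates Nos1 (0.14) and Ppp1r1a (−0.12), the AP-1 partners Fos (−0.30) and Fosl2 (0.24), Nr4a1 (−0.19) of the genes with NFAT sites, and the ryanodine receptor Ryr2 (0.17). The list counts with a block were therefore 1 of 12 regulators, 1 of 14 kinases, 7 of 20 substrates (6 higher and 1 lower), 3 of 7 AP-1 partners (1 higher and 2 lower), 3 of 6 genes with NFAT sites (all lower) and 4 of 15 calcium genes (all higher). Beside them, 1684 of all 15314 genes passed with the first part as a block and 1634 with the whole number. Tnf, Il6, Csf2, Il2, Ifng and Fasl were not listed for neurons, and Ppp3r2 was under the minimum.

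In astrocytes with Allo, 2 of the 76 passed the unadjusted threshold, both higher, where 3.72% of all genes were, and 0 the adjusted one. Jund, an AP-1 subunit, averaged 2680 ± 35.6 and 2873 ± 164 (log2 difference 0.10, limma adjusted p = 0.706), and Ccl2, a chemokine, 811 ± 108 and 1075 ± 295 (0.37, limma adjusted p = 0.692). The count moved from 1 (without AM-Allo 2) to 7 (without AM-Allo 1) when single libraries were left out, and was 4 without AM-Veh 3 or AM-Allo 3. Jund did not pass without any one of AM-Veh 1, 2 and 3 and AM-Allo 2 (0.05 to 0.11), nor Ccl2 without any one of AM-Veh 1, AM-Allo 2 and AM-Allo 3 (0.23 to 0.26). With the library number as a block it was 3. In the other 5 lists 0 passed.

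Between the first numbers, 26 of the 76 passed the unadjusted threshold, 20 higher and 6 lower with first number 2, beside 15.3% and 14.1% of all genes. The adjusted threshold was passed by 15 of the 76, beside 17.2% of all genes. The 7 AP-1 partners were all higher with first number 2, and 4 of them rose at the adjusted threshold: Junb from 357 to 664 (log2 difference 0.89, limma adjusted p = 7.67e-08), Fosl1 from 204 to 355 (0.79, limma adjusted p = 3.3e-06), Jun and Fos. On the log2 scale Mef2c, a calcineurin substrate of the MEF2 family, rose by 0.24 (limma adjusted p = 0.000333) and the IP3 receptor Itpr1 by 0.20 (limma adjusted p = 0.00534). Nr4a1, an orphan nuclear receptor with NFAT sites, fell by 0.37 on that scale (limma adjusted p = 0.000593), whereas Egr2 was at 39.3 and 51.3 (limma adjusted p = 0.169) and did not pass the unadjusted threshold without any one of the 4 AM-Veh libraries, AM-Allo 1-2 or AM-Allo 2-2. On the same scale Ryr3 rose by 0.22 (limma adjusted p = 0.00517), Trpc6 by 0.89 at 13.5 to 26.0 normalized counts (limma adjusted p = 0.0226), Prkacb, a catalytic subunit of protein kinase A, by 0.14 (limma adjusted p = 0.0317), Csnk1a1 by 0.08 (limma adjusted p = 0.0149) and Fkbp1a, the binding partner of FK506, by 0.08 (limma adjusted p = 0.0292). Chp1, a calcineurin B homologue, had −0.08 (limma adjusted p = 0.0989), and Nfatc1 and Nfat5 did not pass. Within AM-Veh alone the unadjusted count was 15 of 75 and the adjusted count 4, beside 3003 and 1069 of all 15318 genes. Fkbp1a, Chp1, Csnk1a1, Prkacb, Egr2 and Trpc6 did not pass the unadjusted threshold there. Under quantile normalization of all 8 libraries Fkbp1a (0.05) did not pass it either. The adjusted count was 9 without AM-Allo 1-2, without AM-Allo 2-2 or without a variance trend, beside 2056, 1959 and 1722 of all genes.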

How the data were processed

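The RNA-seq libraries were poly(A)-selected and stranded. The authors quantified rat transcripts with Salmon 0.14 and normalized gene counts with DESeq2 1.18.1, and they deposited 1 table of normalized counts per cell type (a signal, the estimated counts divided by normalization factors) and 1 of variance-stabilized (VST) values close to a log2 scale. Whole reads could not be recovered. In the neuron VST table the authors' values have equal means for both first numbers in all 18239 genes, so that difference had been removed there.

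Samples were grouped by cell type, treatment and number in their titles. The log2 of each normalized count plus 1 was used, and genes with a mean of at least 10 were tested with limma 3.58.1 (lmFit, eBayes with trend) in R 4.3.3, with Benjamini-Hochberg adjustment over all genes. Single genes had a two-sided exact permutation test in scipy 1.17.1. The script was tested on simulated data. Because each cell type had its own normalization, none of the tests spans both.

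Deviations from group means correlated over genes at 0.229 to 0.296 for AM-Veh and AM-Allo neuron libraries of the same number, 0.185 to 0.236 for those sharing the first part alone, and −0.319 to −0.15 for others, so numbers pair the neuron libraries (a pattern of the data, which the labels do not explain). The genes behind these correlations are not independent replicates.

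Genes named were the 10 of the pathway, from each other list and comparison the 2 with the lowest unadjusted p under 0.05 (otherwise the most abundant gene), the 5 most like Rcan2, and the 3 most abundant markers of each marker list. Some genes that this rule takes are not reported here. The genes and lists were chosen with earlier results of these data known. Promoter windows and their positions are from RefSeq on GRCr8, another assembly than the authors used, and no protein sequences or transcript lengths were used.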

Additional observations from a re-analysis of the deposited data

Results flagged for a closer look

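For 5 of the 10 genes the values of AM-Allo against AM-Veh in neurons pointed apart between the 2 first numbers of the libraries, either at the unadjusted threshold of the interaction test or because the libraries lay in opposite directions. The interaction (first number 2 minus first number 1, log2 scale) was 0.158 for Ppp3cb, 0.11 for Ppp3r1 and −0.246 for Nfatc3, each at an unadjusted limma p under 0.05. For Ppp3cc it was 0.212 and for Nfatc4 −0.826, neither of which reached that threshold, and there both AM-Allo libraries of first number 1 lay on one side of their AM-Veh mean and both of first number 2 on the other. Of these 5 genes 0 passed adjustment over all genes (limma adjusted p = 0.379 to 0.753), and 9.53% of all genes passed the unadjusted threshold. This comparison was added after the data were seen. Among the groups of 4 neuron libraries no library of the 10 genes stood apart by Dixon's test.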

How the results depend on the processing

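In neurons with Allo, the log2 differences of the 10 genes kept their sign under each scaling, minimum, pseudocount and block that was run (Nfatc4 was not in the fit at a minimum mean of 50). With single libraries left out, Ppp3cc ranged from −0.11 to 0.0123 (above 0 without AM-Allo 1-1), Nfatc3 from −0.0944 to 0.0043 (without AM-Allo 2-1) and Nfatc4 from −0.4462 to 0.0714 (without AM-Allo 2-2), and the other 7 genes kept their sign. Other pathway genes at an unadjusted p under 0.05 numbered 11, and all genes 872. With VST values they numbered 19 and 2204, with the first part of the number as a replicate block 19 and 1684, with the whole number as a block 19 and 1634, and with VST values and the first part as a block (chosen after seeing the data) 19 and 1694. The VST table had the first-number difference removed, so its values without a block count that removal as free, and it gave no comparison of first numbers. No call was made for the 10 genes in this comparison.

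In astrocytes, upper-quartile scaling gave −0.0055 for Rcan1, −0.0117 for Ppp3ca, −0.0064 for Ppp3cb and −0.0083 for Ppp3r1, and quantile normalization −0.0060 for Ppp3ca, against differences just above 0. The count of other pathway genes was 1 under both, without a trend and with a robust fit. With single libraries left out, the ranges were −0.0531 to 0.0630 for Rcan1, −0.0003 to 0.0450 for Rcan2, −0.0291 to 0.0332 for Ppp3ca, −0.0042 to 0.0195 for Ppp3cb, −0.0210 to 0.0347 for Ppp3r1, −0.0344 to 0.0984 for Nfatc4, 0 to 1 for the members called and 1 to 7 for the other genes called. Same-numbered astrocyte libraries correlated at −0.007 to 0.0241, so the numbers do not pair them, and the replicate block called 0 of the 10 genes (Rcan3 p = 0.0723) and 3 others.

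Between first numbers, where the shared number is the comparison and no block applies, Ppp3r1 was −0.0004 under quantile normalization. AM-Veh libraries alone gave −0.0539 for Ppp3r1, 0.0877 for Nfatc3, 0.0329 for Nfatc4, 1 of the 10 genes called (Ppp3cb, −0.11) and 15 others. With single libraries left out, the ranges were −0.0046 to 0.1227 for Rcan3, −0.0570 to 0.0072 for Ppp3cb, −0.0195 to 0.0275 for Ppp3r1 and −0.0712 to 0.0357 for Nfatc3. The causes were not tested. Normalized values carry no read depth, so counting error is unknown.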
